A study of Mus musculus with 208 samples.

Results

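The 9 genes described here encode regulators of G protein signalling, or RGS proteins: Rgs2, Rgs4, Rgs8, Rgs16, Rgs7, Rgs9, Rgs10, Rgs14 and Rgs20. They were taken by symbol from the 39179 gene IDs of the deposited tables, and all 9 were found. The study profiled polyadenylated RNA of the striatum from C57BL/6 mice heterozygous for a knock-in Htt allele, the huntingtin gene whose long CAG repeat causes Huntington's disease. The knock-in lines are named by the repeat length of that allele: Q175, Q140, Q111, Q92, Q80 and Q20, the last with a repeat of the length carried by unaffected people. Mice of each line were taken at 2, 6 and 10 months of age, beside wild types with 2 normal Htt alleles. Each line had wild types housed with it at 6 months, while the wild types of 2 and 10 months shared the housing of Q20. The knock-in allele is carried in every cell from conception, so no group tests the repeat in 1 cell type. The libraries form 26 groups of 8, with both sexes in each.

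RGS proteins bind the active, GTP-bound alpha subunit of a heterotrimeric G protein and speed up its GTP hydrolysis, which shortens the signal of the receptor upstream. In the striatum they set how long dopamine, opioid, muscarinic, adenosine and cannabinoid receptors act on the medium spiny projection neurons. Medium spiny neurons make up most of the neurons there. The 9 genes fall into 4 families. Rgs2, Rgs4, Rgs8 and Rgs16 belong to the R4 family of small proteins, Rgs7 and Rgs9 to the R7 family that works in complex with G beta 5, Rgs10 and Rgs14 to the R12 family, and Rgs20 to the RZ family, known for acting on G alpha z.

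Total counts per library ran from 29120490 to 49550126, with medians of 31878382 at 2 months, 41011566 at 6 months and 33005418 at 10 months. The lowest count of any of the 9 genes in any library was 103, for Rgs16. Levels within a gene are given as CPM, counts scaled to a common library total, and levels between genes as FPKM, which allow for length. At 2 months 5 libraries of Q92, Q80 and Q20 stand apart. They had a median correlation under 0.97 with the others of their age, and 20.5 to 24.1% of their counts were mitochondrial, against 11.4 to 17.4% in the other 2-month libraries. Also at 2 months, 1 Q80 library labelled male had no Y-linked counts. A gene was called higher or lower at an adjusted p under 0.05 in edgeR's quasi-likelihood test with Benjamini-Hochberg adjustment over all genes tested. The labels number the libraries as replicates without saying that each is a separate mouse, so p-values measure the spread between libraries.

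In wild types of 6 months (n = 48), the 9 genes spanned a wide range of FPKM. Rgs9, whose striatal form restrains dopamine D2 and mu opioid receptor signals, was the most abundant at 297 ± 20.1 FPKM (SD), and Rgs4, which acts on Gi, Go and Gq, followed at 218 ± 19.7 FPKM. Rgs2, which prefers Gq, stood at 56.4 ± 14.95 FPKM and Rgs8 at 51.7 ± 3.42 FPKM. These 2 genes did not differ beyond their SDs, and both lay far under Rgs4. Rgs10 had 36.1 ± 2.54 FPKM, Rgs14 31.35 ± 2.73 FPKM and Rgs20 29.8 ± 3.28 FPKM. Each of these overlapped its neighbour in the order within 1 SD. Rgs7 had 16.9 ± 1.04 FPKM, below the 3 genes before it, and Rgs16 had 4.18 ± 4.51 FPKM, the only one whose SD exceeded its mean.

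The levels of wild types at the 3 ages are given without a test. Rgs9 had 283.5 ± 24.25 FPKM at 2 months (n = 8), 297 ± 20.1 FPKM at 6 months (n = 48) and 223 ± 26.2 FPKM at 10 months (n = 8). Rgs14 had 30.35 ± 3.03, 31.35 ± 2.73 and 24.8 ± 2.69 FPKM at the same ages, and Rgs20 had 31.2 ± 1.85, 29.8 ± 3.28 and 25.1 ± 2.01 FPKM. All 3 were lowest at 10 months. Rgs4 was highest at 2 months, with 268 ± 17.8, 218 ± 19.7 and 239 ± 19.5 FPKM at the 3 ages. Rgs8 and Rgs7 had means of 46.7 to 51.7 FPKM and 16.9 to 19.8 FPKM, Rgs2 of 54.9 to 58.15 FPKM and Rgs10 of 36.1 to 41.7 FPKM. Rgs16 differed most between ages, with 1.82 ± 0.357, 4.18 ± 4.51 and 11.99 ± 7.41 FPKM at 2, 6 and 10 months, and its lowest library at 10 months, with 2.32 FPKM, lay within the range of 2 months. The summed level of 6 thalamic markers in the wild types housed with Q20 had medians of 58.3, 87.6 and 357 CPM at the same ages. That of 14 markers of medium spiny neurons had medians of 11790, 11560 and 9867 CPM. The part of either sum in these levels of Rgs16, Rgs9, Rgs14 and Rgs20 was not tested.

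The promoters of Rgs9, Rgs4 and Rgs2 are shown because the first 2 are the most abundant members and moved together across groups, and because the third was most like activity-induced genes across groups. Each is 300 bases, from 250 before to 50 after the annotated start, written 5′ to 3′ on the gene's strand (RefSeq, GRCm38.p6). They lie at chr11:109298132-109298431 on the minus strand for Rgs9, chr1:169747593-169747892 on the minus strand for Rgs4 and chr1:144004100-144004399 on the minus strand for Rgs2. Capitals mark matches on either strand to TATAAA, to TGACG, the core of the cAMP response element, and to GCGNGGGCG, a motif of the EGR factors.
Rgs9: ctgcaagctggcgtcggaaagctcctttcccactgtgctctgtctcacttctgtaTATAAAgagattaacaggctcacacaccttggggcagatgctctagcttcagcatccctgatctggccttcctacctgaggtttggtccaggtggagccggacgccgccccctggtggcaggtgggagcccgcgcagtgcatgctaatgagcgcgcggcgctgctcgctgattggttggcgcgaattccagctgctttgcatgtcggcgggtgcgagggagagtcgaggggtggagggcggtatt
Rgs4: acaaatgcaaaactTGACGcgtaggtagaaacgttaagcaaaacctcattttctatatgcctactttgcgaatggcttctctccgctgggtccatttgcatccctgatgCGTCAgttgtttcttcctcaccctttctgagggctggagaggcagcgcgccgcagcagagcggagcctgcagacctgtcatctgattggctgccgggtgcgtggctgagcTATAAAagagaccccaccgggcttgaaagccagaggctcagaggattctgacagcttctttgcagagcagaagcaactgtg
Rgs2: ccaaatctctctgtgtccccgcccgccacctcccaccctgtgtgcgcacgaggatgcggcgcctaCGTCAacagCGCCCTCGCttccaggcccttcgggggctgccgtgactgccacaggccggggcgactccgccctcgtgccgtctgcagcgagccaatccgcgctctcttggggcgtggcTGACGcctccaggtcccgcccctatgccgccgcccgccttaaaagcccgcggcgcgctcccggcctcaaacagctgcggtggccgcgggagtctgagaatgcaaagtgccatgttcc
RefSeq promoters were matched for 7 of the 9 genes. TATAAA was found in Rgs4, 31 bases before the start, and in Rgs9, 195 bases before it, and in 13.6% of all 32851 promoters of this length. TGACG was found in Rgs2, Rgs4 and Rgs8 and in 20.8% of all promoters. Rgs8 had several promoters, and only that at chr1:153652787-153653086 held TGACG. Genes are counted here if any of their promoters held the motif, while the shares are of promoters. GCGNGGGCG was found in Rgs2 and in 5.55% of all. Motifs of the MEF2 factors and of NRF1, searched on both strands as well, were found in none of the 7, and in 3.69 and 4.6% of all. The full element TGACGTCA, which contains TGACG, was found in none of the 7 and in 1.79% of all. These matches describe the letters in the windows and are not binding sites.

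**Figure D1:**
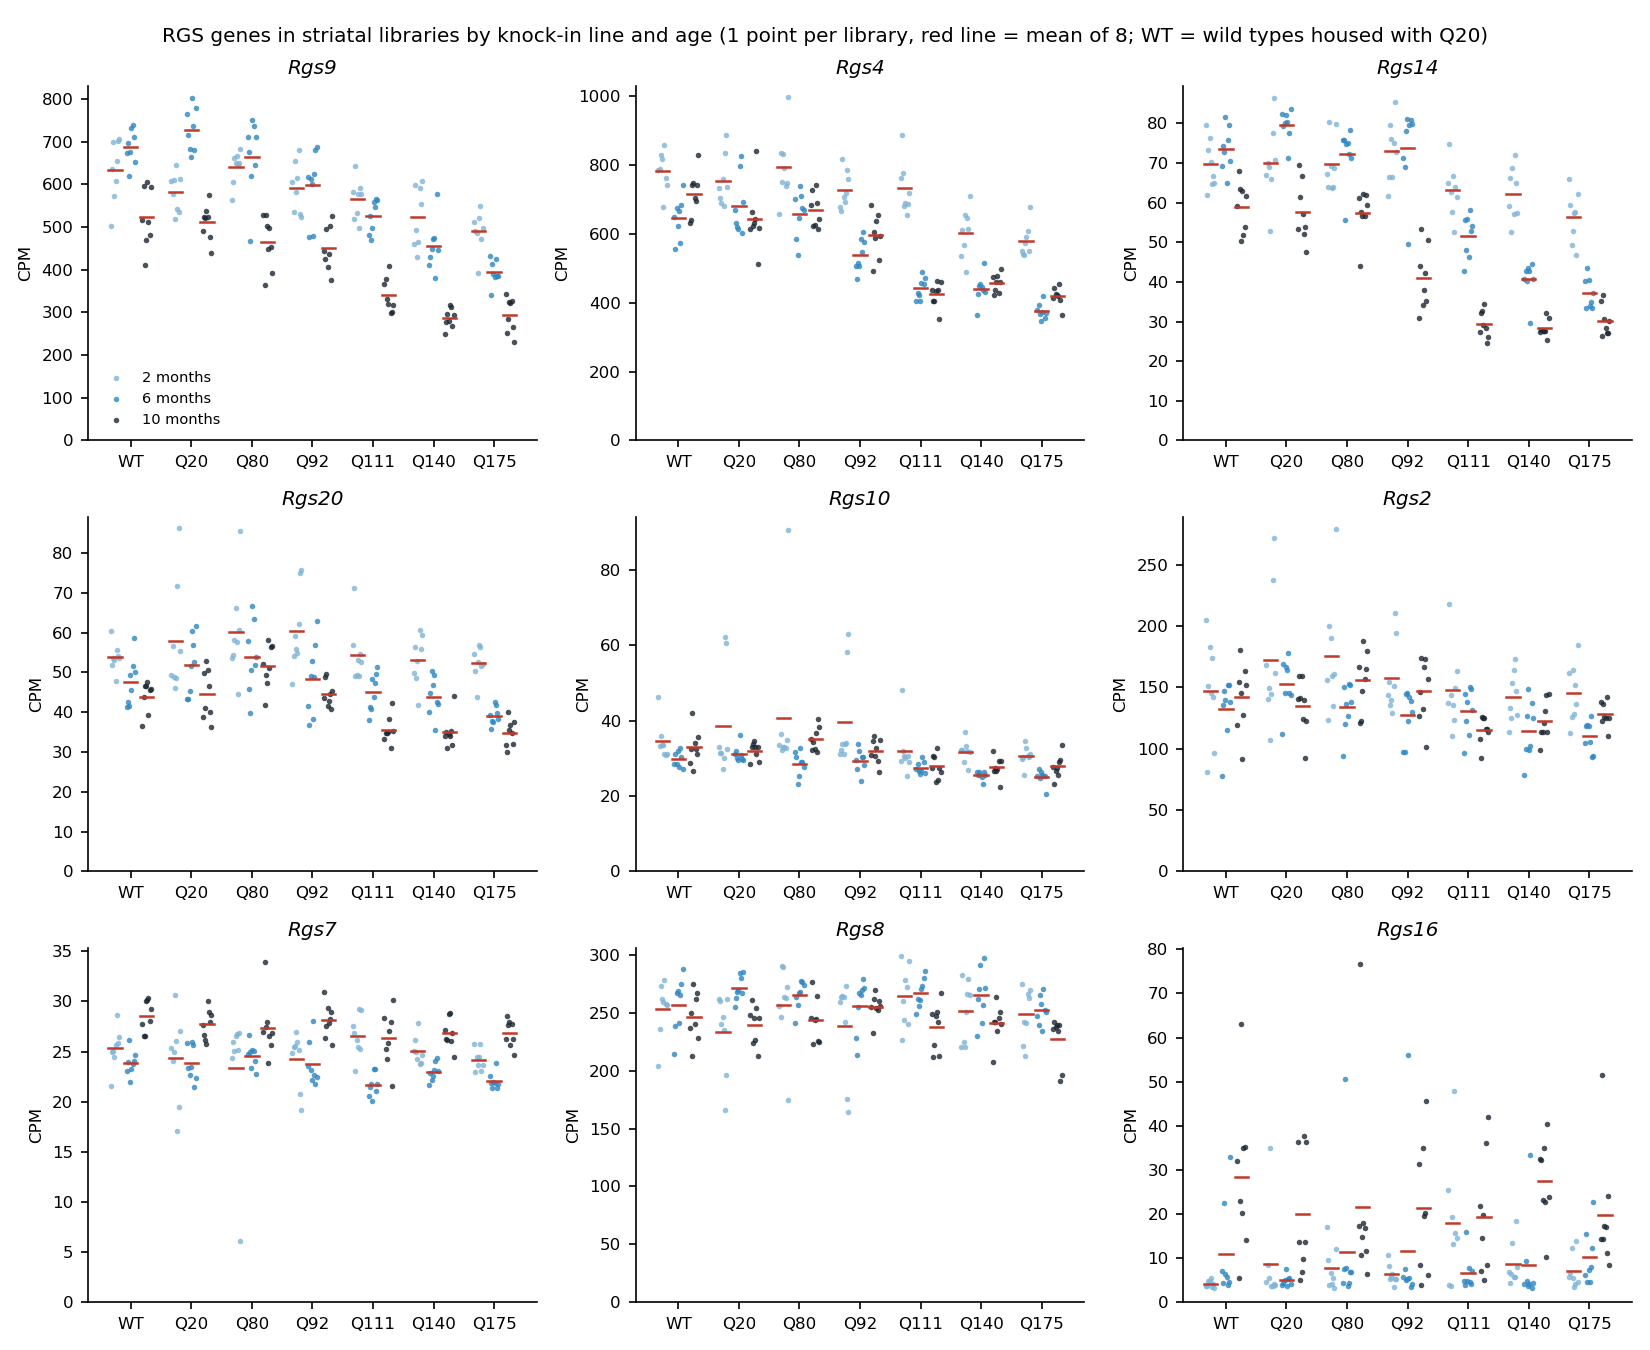
CPM of the 9 RGS genes in the wild types housed with Q20 and in the 6 knock-in lines at 2, 6 and 10 months, 1 point per library with the mean of 8 as a red line, on axes that start at 0. Rgs9, Rgs4 and Rgs14 step down toward the longest repeats at 6 and 10 months, Rgs8 and Rgs7 stay nearly level, and Rgs16 scatters widely within groups.

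The first comparison set each line with a long repeat against Q20 of the same age, which asks whether the length of the repeat, apart from the presence of a knock-in allele, goes with a change. At 6 months the number of the 9 genes that fell grew with the repeat. Q175 had 7 called lower, against a background of 18.2% of the 17642 genes tested. Q140 had 6 called lower (14.1%), Q111 had 5 (7.45%), Q92 had 2 (2.99%) and Q80 had 0 (0.085%). None of the 9 was called higher in any of the 15 tests of a line against Q20, where 0 to 18% of all genes were. In Q175 the median log2 change of the 9 genes was -0.40, against 0.0097 over all genes tested. In Q80 at 6 months, 3 of the 9 had an unadjusted p under 0.05 in edgeR, and DESeq2 and limma called 0.

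At 10 months the counts were of similar size. Q175 and Q140 each had 5 called lower (background 12.1% and 11.6%), Q111 had 4 (6.9%), Q92 had 1 (0.78%) and Q80 had 0 (0.0291%), where 1 gene had an unadjusted p under 0.05 and DESeq2 and limma called 0. At 2 months Q175 had 1 called lower (0.188%). The other 4 lines had 0 (0.0118% of all genes in Q111 and 0 genes in Q140, Q92 and Q80). In those 4 lines at 2 months the members with an unadjusted p under 0.05 were Rgs14, Rgs4 and Rgs9 in Q140 and Rgs16 in Q111, and DESeq2 and limma each called 1 member in Q140 and 0 in the others.

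**Figure D2:**
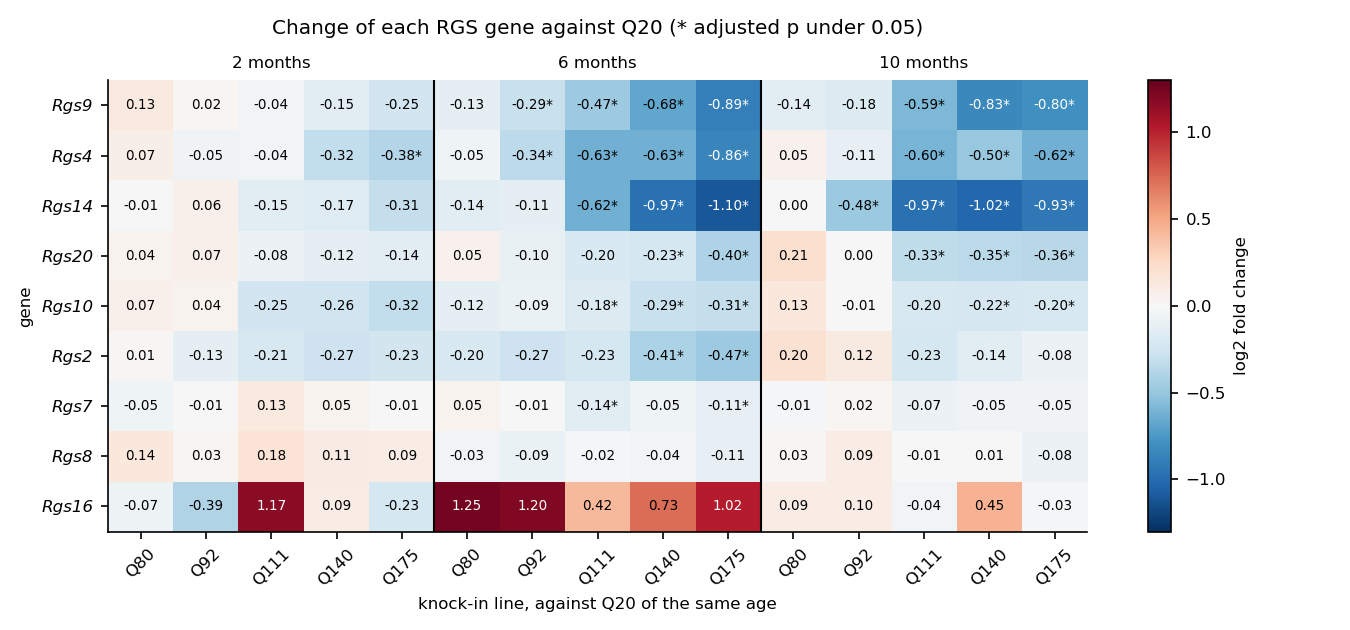
Log2 fold change of each RGS gene (rows) in each line against Q20 of the same age (columns), with the value printed in each cell and an asterisk at an adjusted p under 0.05. The called cells are all falls, gather in Q111, Q140 and Q175 at 6 and 10 months, and reach -1.10 for Rgs14 in Q175 at 6 months.

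Markers of medium spiny neurons fell in the same comparison. Of 14 such markers, none of which was at 0, 13 were lower and 0 higher in Q175 at 6 months (median log2 change -0.77), beside 18.2% of all genes lower. Their summed level was 6500 to 7469 CPM in Q175 and 11440 to 13480 CPM in Q20. At 10 months 13 were lower (median -0.66), beside 12.1% of all genes. The sums were then 4892 to 6394 CPM in Q175 and 7866 to 10900 CPM in Q20. Their part in the changes of the 9 genes was not tested, and in these bulk samples fewer cells of a type and less RNA per cell cannot be told apart.

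Rgs9, the most abundant of the 9, fell against Q20 in every line from Q92 upward at 6 months. Against wild types housed with Q92, its change in Q92 was -0.16 and was not called (adjusted p = 0.936). The level of Rgs9 in Q175 at that age ran from 341 to 432 CPM, with a median of 387 CPM. In Q20 it ran from 665 to 802 CPM, with a median of 726 CPM. Every Q175 library lay below every Q20 library. The means were 394 ± 29.2 CPM in Q175 and 728 ± 50.6 CPM in Q20 (SD, n = 8 each), which is 54.1% of the Q20 level and a log2 change of -0.885 (SE 0.065, adjusted p = 1.41e-20). The lines in between formed a graded series, with 62.5% of the Q20 level in Q140, 72.2% in Q111 and 82.0% in Q92, all called, and 91.3% in Q80, which was not (adjusted p = 0.431). No pair of neighbours in that order differed beyond the SDs of both groups. At 10 months Rgs9 ran from 231 to 344 CPM with a median of 304 CPM in Q175, against 438 to 575 CPM with a median of 522.8 CPM in Q20, again without overlap (log2 change -0.80, SE 0.084, adjusted p = 7.23e-11). At that age the means were 287 ± 22.7 CPM in Q140 and 294 ± 41.3 CPM in Q175, within 1 SD of each other.

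Rgs7, the other R7 gene of the 9 and a partner of G beta 5 in many brain regions, changed little. Its range at 6 months was 21.4 to 23.9 CPM in Q175 with a median of 21.9 CPM, against 21.4 to 25.95 CPM in Q20 with a median of 23.4 CPM. The groups overlapped, and the log2 change was -0.11 (SE 0.043, adjusted p = 0.0379). It was also called in Q111 (-0.14, adjusted p = 0.0204) but not in Q140 (-0.053, adjusted p = 0.393). The call in Q175 was lost in 13 of 27 alternative analyses, among them each of the 3 on FPKM, where the change was -0.033 to -0.035 (largest adjusted p = 0.697). At 10 months the log2 change in Q175 was -0.0455 (adjusted p = 0.571). Within libraries, the ratio of Rgs9 to Rgs7 in FPKM at 6 months was 9.60 to 11.7 in Q175 and 17.3 to 21.4 in Q20. These family members changed unequally.

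Rgs4 fell as far as Rgs9 at 6 months and was the only member called against Q20 at 2 months. At 6 months its level in Q175 ran from 347 to 419 CPM with a median of 372 CPM, against 601 to 826 CPM with a median of 651.2 CPM in Q20. The groups did not overlap, and Q175 held 55.1% of the Q20 level (log2 change -0.86, SE 0.057, adjusted p = 5.53e-23). Q140 and Q111 were level with each other, at 440 ± 41.4 and 442 ± 31.1 CPM, while Q92, with 539 ± 46.8 CPM, lay beyond the SDs above Q111 and Q175, with 376 ± 22.3 CPM, beyond the SDs below Q140. At 10 months Rgs4 ran from 364 to 453.1 CPM in Q175, with a median of 421.5 CPM, against 511 to 840 CPM in Q20, with a median of 627 CPM. All 8 libraries of Q175, of Q140 and of Q111 were below the lowest Q20 library, with log2 changes of -0.62, -0.50 and -0.60.

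At 2 months Rgs4 ran from 539 to 678 CPM in Q175 with a median of 561 CPM, against 680 to 888 CPM with a median of 733 CPM in Q20. The highest Q175 library lay just under the lowest Q20 library, and the log2 change was -0.38 (SE 0.070, adjusted p = 0.00471). With the number after L in the library names, whose meaning the labels do not give, as a further factor, the change was -0.36 and the call was lost (adjusted p = 0.0655). In Q140 at that age 7 of 8 libraries lay below the lowest Q20 library, with a log2 change of -0.32 (adjusted p = 0.112).

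Of 11 cortical neuron markers, 8 were higher in Q92 against Q20 at 6 months, with a summed level of 63.4 to 650 CPM in Q92 and 52.1 to 202 CPM in Q20. The median sum was 137 CPM in Q92, 151 CPM in the wild types housed with Q92 and 58.8 CPM in Q20. That of Q20 was the lowest of all groups of this age. With scores for cortical, thalamic and choroid plexus markers in the fit, the change of Rgs9 in Q92 against Q20 was -0.17 (adjusted p = 0.0106) in place of -0.29. That of Rgs4 was -0.28 (adjusted p = 0.00408) in place of -0.34. Against the wild types housed with Q92, without the scores, neither was called (adjusted p = 0.936 for Rgs9 and 0.948 for Rgs4). The part of RNA from these tissues in the changes was not tested.

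Of 8 choroid plexus markers, none of which was at 0, 5 were higher in Q140 against Q20 at 10 months (median log2 change 0.92) and 6 against wild types. Their summed level was 33.8 to 297 CPM in Q140, against 26.6 to 153 CPM in Q20 and 28.7 to 72.6 CPM in wild types. The 5 genes called lower in Q140 at that age were also called in a fit with the tissue scores, and the part of these tissues in the changes was not tested. The change was then -0.90 in place of -1.02 for Rgs14, -0.76 in place of -0.83 for Rgs9, -0.50 for Rgs4 with or without the scores, -0.30 in place of -0.35 for Rgs20 and -0.19 in place of -0.22 for Rgs10. In Q80 at 6 months, where none of the 9 was called, 7 of the 8 markers were higher (median 3.71), and 1 library had a sum of 5808 CPM beside a group median of 112 CPM.

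Rgs8, a close relative of Rgs4 that acts on Gi and Go, stayed near its Q20 level. At 6 months it ran from 234 to 270 CPM in Q175 with a median of 251 CPM, against 255 to 285 CPM in Q20 with a median of 269 CPM. The ranges overlapped, although 5 of 8 Q175 libraries lay below the lowest Q20 library, and the log2 change was -0.11 (unadjusted 95% interval -0.20 to -0.018, adjusted p = 0.0571). That value sat at the threshold: DESeq2 gave an adjusted p of 0.0492 and the fit of Q175 and Q20 alone 0.00756, and over all 27 alternatives it reached 0.25. At 10 months the log2 change was -0.077 (adjusted p = 0.326), and in the other lines at that age it lay between -0.0093 and 0.094. Over the 26 group means, which were scaled within each age, Rgs8 spanned only 227 to 271.5 CPM, while Rgs4 spanned 376 to 794 CPM.

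Rgs14, a scaffold that binds Gi alpha subunits and Ras family proteins besides carrying an RGS domain, showed the deepest fall of the 9. At 6 months it ran from 33.5 to 43.6 CPM in Q175 with a median of 36.0 CPM, against 71.3 to 83.6 CPM in Q20 with a median of 80.3 CPM. No library of the 2 groups overlapped. Q175 held 46.7% of the Q20 level (log2 change -1.10, SE 0.071, adjusted p = 1.14e-23), Q140 held 51.0% and Q111 64.9%. In Q92 it held 92.5% at 6 months, which was not called (adjusted p = 0.372), and 71.2% at 10 months, which was (log2 change -0.48, adjusted p = 0.00112). Rgs14 was the only member called in Q92 at 10 months.

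At 10 months Rgs14 ran from 26.3 to 36.8 CPM in Q175 with a median of 29.3 CPM, against 47.6 to 69.6 CPM in Q20 with a median of 55.5 CPM (log2 change -0.93, SE 0.0895, adjusted p = 6.85e-12). Q140 and Q111 had 28.3 ± 2.16 and 29.3 ± 3.425 CPM beside 30.2 ± 3.88 CPM in Q175. At this age the 3 longest repeats did not differ beyond their SDs, whereas at 6 months Q111, with 51.7 ± 5.37 CPM, lay beyond the SDs above Q140, with 40.6 ± 4.68 CPM.

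Rgs10, a small family member abundant in microglia as well as in neurons, fell less. Its range at 6 months was 20.6 to 27.2 CPM in Q175 with a median of 25.4 CPM, against 29.5 to 36.2 CPM in Q20 with a median of 30.6 CPM, without overlap (log2 change -0.31, SE 0.055, adjusted p = 1.99e-06). In Q175 of 10 months it changed by -0.20 (SE 0.075, adjusted p = 0.0378), the ranges overlapped, and the call was lost in 14 of 27 alternative analyses. Of 12 microglial markers, none of which was at 0, 2 were lower and 0 higher in Q175 at 6 months, where 18.2% of all genes were lower. Their summed level was 573 to 666 CPM in Q175 and 626 to 670.5 CPM in Q20. In Q140 at 6 months 8 of the 12 were lower, where 14.1% of all genes were. Their summed level there was 530 to 628 CPM, beside a log2 change of -0.29 for Rgs10. The part of these markers in the change of Rgs10 was not tested.

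Rgs20, the RZ member, fell at the longest repeats. At 6 months it ran from 35.7 to 42.55 CPM in Q175 with a median of 38.85 CPM, against 43.3 to 61.7 CPM in Q20 with a median of 52.1 CPM. The groups did not overlap, and the log2 change was -0.40 (SE 0.079, adjusted p = 1.74e-05). Q140 was also called (-0.23, adjusted p = 0.0197), and Q111 was not (-0.20, adjusted p = 0.0811). At 10 months all 3 were called, with log2 changes of -0.36 in Q175, -0.35 in Q140 and -0.33 in Q111, and 5 of 8 Q175 libraries lay below the lowest Q20 library.

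Rgs2, which is also induced by neuronal activity, fell at 6 months and was not called against Q20 at 10 months. At 6 months it ran from 93.5 to 127 CPM in Q175 with a median of 112.0 CPM, against 112 to 178 CPM in Q20 with a median of 154.7 CPM. The ranges overlapped, and the log2 change was -0.47 (SE 0.15, adjusted p = 0.00884). Q140 was called as well (-0.41, adjusted p = 0.028). Against its own wild-type cage mates the change in Q175 was -0.28 and was not called (adjusted p = 0.144). At 10 months Rgs2 ran from 111 to 142 CPM in Q175 and from 92.7 to 159 CPM in Q20 (log2 change -0.076, adjusted p = 0.67). In Q111 at that age it was called lower against wild types (-0.30, adjusted p = 0.0496) but not against Q20 (-0.23, adjusted p = 0.174).

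Of 12 activity-induced genes, none of which was at 0, 8 were lower and 0 higher in Q175 at 6 months (median log2 change -0.73), beside 18.2% of all genes lower. The summed level of the 12 was 402 to 597 CPM in Q175 and 640 to 1120 CPM in Q20. At 10 months 1 of the 12 was lower (median -0.11), beside 12.1% of all genes. The sums were then 317 to 559 CPM in Q175 and 282 to 733 CPM in Q20. The part of these genes in the change of Rgs2 was not tested. The difference of the Q175 effect on Rgs2 between 10 and 6 months was 0.38 (SE 0.205, adjusted p = 0.919), so the ages were not shown to differ.

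Rgs16, an R4 member known in rodent brain from thalamic nuclei, was not called in any line against Q20, and its libraries scattered far more than those of the other 8 genes. At 6 months it ran from 4.603 to 22.8 CPM in Q175 with a median of 7.65 CPM, against 3.66 to 7.54 CPM in Q20 with a median of 4.74 CPM (log2 change 1.02, SE 0.55, adjusted p = 0.148). At 10 months the ranges were 8.49 to 51.4 CPM in Q175 and 5.08 to 37.8 CPM in Q20 (log2 change -0.029, unadjusted 95% interval -1.01 to 0.955, not called). The single call was against wild types at 2 months, where Q111 ran from 3.82 to 47.9 CPM with a median of 15.1 CPM, against 3.375 to 5.62 CPM with a median of 3.99 CPM in wild types (log2 change 2.13, SE 0.44, adjusted p = 0.0328, 1 of the 9 genes with a background of 0.365% called higher).

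The level of Rgs16 went with that of 6 thalamic markers, Slc17a6, Tcf7l2, Lef1, Prkcd, Synpo2 and Slitrk6, none of which was at 0. Across libraries, the log2 level of Rgs16 and the log2 summed level of the 6 had a Pearson r of 0.971 at 2 months (n = 56), 0.977 at 6 months (n = 96) and 0.9905 at 10 months (n = 56), and a Spearman rho of 0.870, 0.863 and 0.978. Each of these 6 values had a permutation p of 1e-05 (two-sided, 100000 resamples, the smallest they can give), also after Benjamini-Hochberg adjustment. The resamples shuffled libraries freely across the groups and sexes of an age. The markers were chosen with earlier results of these data known, so the p-values describe these libraries and are not an independent test. Without the 2 libraries farthest from the median marker level, r was 0.959, 0.971 and 0.989. The library with the highest Rgs16 of all, a female Q80 mouse of 10 months with 76.6 CPM, also had the highest marker sum, 884.5 CPM. In Q111 at 2 months the 6 markers summed to 57.0 to 583 CPM, against 49.0 to 72.95 CPM in wild types, and all 6 were called higher. With the tissue scores in the fit, the change of Rgs16 in Q111 against wild types was -0.034 (SE 0.11, adjusted p = 1). That in Q175 against Q20 at 6 months was -0.081 (SE 0.088, adjusted p = 0.518). The scores include that of the thalamic markers, which Rgs16 follows closely. Such a fit takes out any Rgs16 difference that goes with the markers, whatever its origin. The part of RNA from the thalamus in the changes of Rgs16 was therefore not tested.

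**Figure D3:**
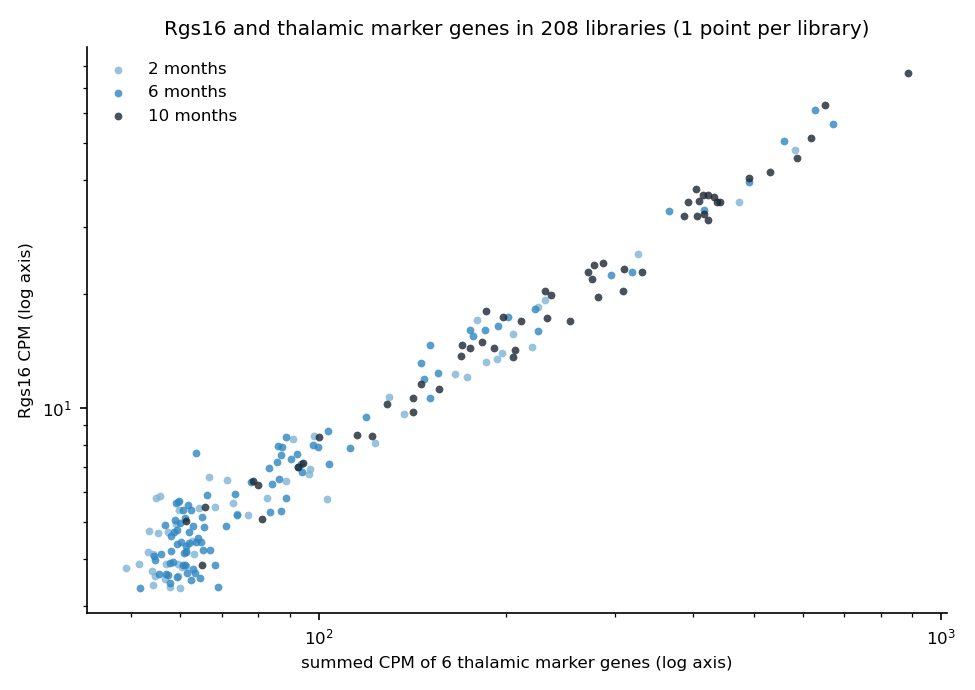
Rgs16 CPM against the summed CPM of 6 thalamic marker genes, both on log axes, 1 point per library, shaded by age. The points lie along 1 line from below 5 CPM of Rgs16 to 76.6 CPM at a marker sum of 884.5 CPM.

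The second test fitted a straight line through the 6 knock-in lines, with slopes given as log2 change for every 10 CAG repeats. At 6 months 7 of the 9 genes had a called downward slope, the same 7 that were called in Q175. The background was 19.6% of 17370 genes called lower. The steepest slopes were -0.082 for Rgs14 (SE 0.0072, adjusted p = 5.67e-13), -0.061 for Rgs9 and -0.060 for Rgs4 (SE 0.00475 and 0.00468, adjusted p = 1.72e-14 for each). At 10 months 5 were called, with a background of 16.9%. The slopes were -0.076 for Rgs14, -0.062 for Rgs9, -0.049 for Rgs4, -0.034 for Rgs20 and -0.020 for Rgs10.

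At 2 months the slopes of Rgs4 (-0.029, adjusted p = 0.0024), Rgs9 (-0.019, adjusted p = 0.0414) and Rgs14 (-0.021, adjusted p = 0.0439) were called, with a background of 0.307%. The last 2 sat near the threshold, and of 15 alternatives the call was lost in 12 for Rgs14, in 6 for Rgs9 and in 1 for Rgs4. Without the Q175 line none of the 3 was called (adjusted p = 0.743 for each), and 0 of all 16834 genes tested were. Rgs8 and Rgs16 were called at no age.

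**Figure D4:**
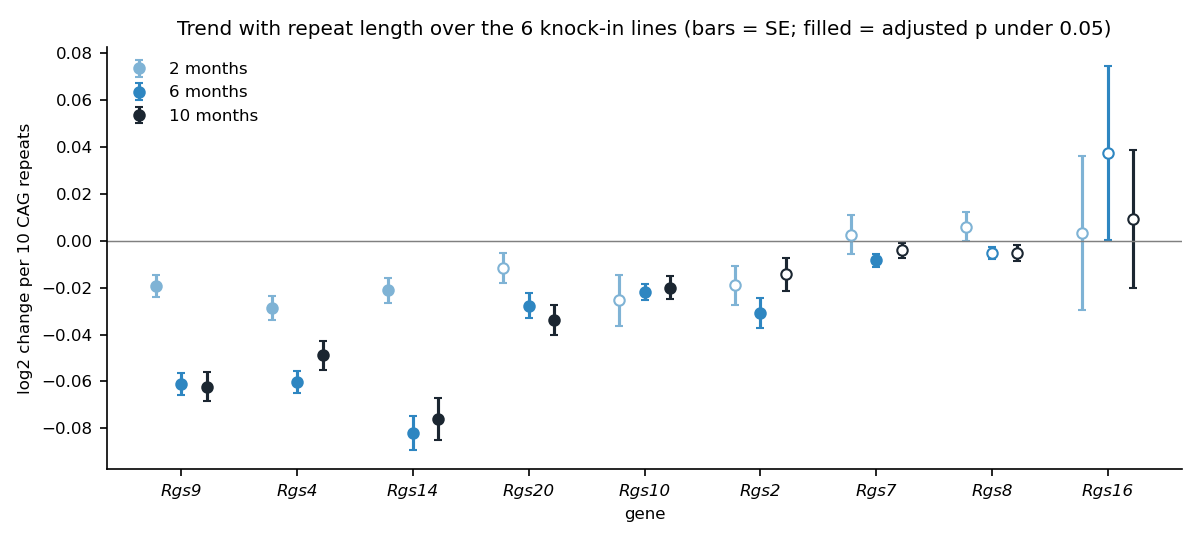
Slope of each RGS gene, as log2 change for every 10 CAG repeats over the 6 knock-in lines, at 2, 6 and 10 months, with bars of 1 SE and filled points at an adjusted p under 0.05. Slopes of Rgs9, Rgs4 and Rgs14 lie between -0.029 and -0.019 at 2 months and between -0.082 and -0.049 at 6 and 10 months.

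The lines were next set against wild types, which asks whether a change also holds beside mice with no knock-in allele. At 6 months, against the wild types housed with each line, 6 of the 9 genes were called lower in Q175 (background 16.1% of all genes called lower), 5 in Q140 (11.7%), 4 in Q111 (4.66%) and 0 in Q92 (0.034%) and Q80 (0.0283%). In Q92, Rgs4 and Rgs9 had an unadjusted p under 0.05, with log2 changes of -0.14 and -0.16, in Q80 no member did, and DESeq2 and limma called 0 in both lines. The change of Rgs14 in Q175 was -1.02 (SE 0.071, adjusted p = 1.31e-21), that of Rgs9 -0.84 and that of Rgs4 -0.84. Rgs20 had -0.51, Rgs10 -0.28 and Rgs7 -0.12.

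At 10 months, against wild types housed with Q20, 5 genes were called lower in Q175 (12.1%), 5 in Q140 (11%), 6 in Q111 (8.54%) and 2 in Q92 (1.23%), the last being Rgs14 with -0.52 and Rgs4 with -0.26. Q80 had 0 called (0.0175%), where Rgs20 and Rgs9 had an unadjusted p under 0.05 and DESeq2 and limma called 0. At 2 months Q175 had Rgs4 (-0.44, adjusted p = 0.000186) and Rgs9 (-0.37, adjusted p = 0.00165) called lower (0.4%), and Q140 had Rgs4 (-0.38, adjusted p = 0.00846) called lower (0.0706%). Q111 had 0 called lower by edgeR (0.0235%), with Rgs9 at an unadjusted p under 0.05, and Rgs16 called higher. DESeq2 made 1 call there and limma 0. Q92 and Q80 had 0 called by edgeR, DESeq2 or limma (0 and 0.00588%), with Rgs16 in Q80 the only one at an unadjusted p under 0.05. The comparisons with Q20 and with wild types share the knock-in libraries.

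Q20 itself was set against the wild types housed with it, to see whether a knock-in allele with a short repeat changes these genes. None of the 9 was called at any age by edgeR, DESeq2 or limma (background 0, 0.0227 and 0.0116% at 2, 6 and 10 months). At an unadjusted p under 0.05 there was 1 gene at each age: Rgs16 at 2 and 6 months, with log2 changes of 0.96 and -1.13, and Rgs4 at 10 months, with a log2 change of -0.15 and 5 of 8 Q20 libraries below the lowest wild type. Rgs9 had log2 changes of -0.125, 0.083 and -0.033 at 2, 6 and 10 months, and Rgs14 had 0.0032, 0.11 and -0.038.

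The Q175 effect against Q20 was compared between ages in 1 fit of all libraries. The effect on Rgs14, Rgs9 and Rgs4 was larger at 6 than at 2 months, by -0.79 (SE 0.11, adjusted p = 3.11e-08), -0.63 (SE 0.10, adjusted p = 1.27e-06) and -0.47 (SE 0.091, adjusted p = 6.83e-05), 3 calls among the 9 genes with a background of 4.5% called lower. Between 10 and 2 months Rgs14 (-0.63) and Rgs9 (-0.56) were called (background 4.1%), and Rgs4 was not (-0.25, adjusted p = 0.0731). Between 10 and 6 months none was called by edgeR, DESeq2 or limma (background 0.0112%), and Rgs4 alone had an unadjusted p under 0.05, with a difference of 0.22. Without the 5 libraries that stand apart at 2 months there were 9 calls over the 3 comparisons in place of 5. Rgs20 was then called between 6 and 2 months (-0.446) and between 10 and 2 months (-0.40), Rgs4 between 10 and 2 months (-0.33), and Rgs10 between 6 and 2 months, with -0.32 (adjusted p = 0.0292) in place of 0.0104.

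Rgs10 was high in those libraries. In Q80 at 2 months it ran from 32.2 to 90.6 CPM with a median of 33.2 CPM, and from 27.3 to 62.2 CPM in Q20 with a median of 32.0 CPM. The highest value of each of these groups was from a library that stands apart, while in Q175, which has none of them, the range was 25.5 to 34.5 CPM. The summed level of the 12 microglial markers at that age reached 865 CPM in Q80 and 780 CPM in Q20, beside medians of 567.5 and 567 CPM, and 634.5 CPM at most in Q175.

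No difference of the Q175 effect between females and males was called for any of the 9 genes at any age by edgeR, DESeq2 or limma, with no member at an unadjusted p under 0.05 and a background of 0 genes called at each age. The difference, female minus male, for Rgs9 was 0.083 at 6 months (unadjusted 95% interval -0.17 to 0.33), for Rgs4 0.17 (-0.028 to 0.37) and for Rgs14 0.13 (-0.15 to 0.41).

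Over the 26 group means, centred within each age, Rgs9 had a Pearson r of 0.96 with Rgs4 and 0.95 with Rgs14, and Rgs4 had 0.92 with Rgs14. Rgs8 had 0.29 with Rgs9, 0.28 with Rgs4 and 0.13 with Rgs14, and Rgs16 had -0.18, -0.11 and -0.10 with the same 3. These r describe groups that share ages, lines and library sets, and no p is given. Neighbouring groups in the order of each gene's levels at each age were also compared, with only the wild types housed with Q20 included. Of 162 such pairs, 9 differed beyond the SDs of both groups, all of them for Rgs4, Rgs9, Rgs14 or Rgs20.

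By the same measure, among 13282 named genes that averaged 1 CPM or more, those most like Rgs9 were Cnr1 (r = 0.992), the cannabinoid receptor gene, Adcy5 (0.991), which encodes the main adenylyl cyclase of the striatum, and Gsg1l (0.988), an auxiliary protein of AMPA receptors. Those most like Rgs4 were Acvr1c (0.984), Kcnab1 (0.983) and Pde1b (0.980), and those most like Rgs14 were Zbtb18 (0.994), Rps6ka4 (0.989) and Fbxl16 (0.989). Rgs2 was most like Egr1 (0.921), Tiparp (0.912) and Nr4a1 (0.910), of which Egr1 and Nr4a1 are activity-induced transcription factors. Rgs20 was most like Cap2 (0.953) and Homer1 (0.949), and Rgs10 was most like Pkig (0.974), Brk1 (0.967) and Nrgn (0.966). Rgs7 had lower likeness, with Lrrc20 (0.877), Sh3bgrl2 (0.864) and Fsbp (0.833).

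Most partners of the R7 family fell in Q175. Of 5 partner genes, 4 passed the filter on low counts at 6 months, and 3 were lower and 1 higher in Q175 against Q20 (median log2 change -0.40). Over all genes tested the median was 0.0097, with 18.2% called lower and 18% called higher. Rgs7bp, which anchors R7 proteins at the membrane, had 296 ± 14.45 CPM in Q175 and 410 ± 23.75 CPM in Q20 (SD, n = 8 each, log2 change -0.47, adjusted p = 3.94e-14). Gnb5, the obligate beta subunit of the family, had a log2 change of -0.41 (adjusted p = 2.37e-07), and Gpr158, an orphan receptor that binds Rgs7, had -0.39 (adjusted p = 3.09e-09). Gpr179, the higher one, stood at 1.33 CPM in Q175 and 0.972 CPM in Q20. Rgs9bp, with a mean of 0.1495 CPM over all libraries, did not pass the filter at 6 months.

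Of 12 other RGS genes, 9 passed the filter, and 3 were lower and 2 higher in Q175 at 6 months (median 0.044). Of all genes tested 18.2% were lower and 18% higher. Rgs11, a further R7 member, fell to 34.03 ± 2.42 CPM in Q175, against 59.05 ± 4.90 CPM in Q20 (log2 change -0.79, adjusted p = 1.03e-23). Rgs12 had -0.26 and Rgs5, a gene of pericytes, -0.21. Of 11 endothelial and mural markers, none of which was at 0, 9 were lower and 0 higher in the same comparison, beside 18.2% of all genes lower. Their summed level was 366 to 406 CPM in Q175 and 413 to 467 CPM in Q20, and their part in the change of Rgs5 was not tested. Rgs19 was higher, with 12.9 ± 0.969 CPM in Q175 and 8.72 ± 0.733 CPM in Q20 (log2 change 0.56, adjusted p = 2.95e-13). Rgs13 was higher at the edge of detection, with 0.3285 CPM in Q175 and 0.138 CPM in Q20. At 10 months Rgs11 (-0.84), Rgs12, Rgs19 (0.53) and Rgs13 were again called in the same directions.

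Genes of the G proteins that RGS proteins act on were called in both directions, as were all genes tested, of which 18.2% were lower and 18% higher. Of 13 alpha subunit genes, 3 were lower and 4 higher in Q175 at 6 months (median -0.0084). Gnal, the olfactory-type alpha subunit that couples striatal dopamine D1 and adenosine receptors to adenylyl cyclase, had a log2 change of -0.27, and Gnao1, the alpha subunit of Go, had -0.25. Gnai1 (0.21), Gnai2 (0.13), Gnaq (0.096) and Gnas (0.23) were higher and Gna13 was lower (-0.096). Of 13 beta and gamma subunit genes, 2 were lower and 4 higher (median 0.082). Gng7, a gamma subunit of the Gnal-containing trimer, had 1069 ± 59.6 CPM in Q175 and 1396 ± 56.1 CPM in Q20 (log2 change -0.39, adjusted p = 4.82e-07), while Gng3 (0.53) and Gng4 (0.66) were higher.

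Among 17 effector genes, 5 were lower and 1 higher (median -0.073), beside 18.2% lower and 18% higher among all genes tested. Adcy5 fell to 947 ± 56.6 CPM in Q175, against 1662 ± 112 CPM in Q20 (log2 change -0.81, adjusted p = 5.46e-21), and Plcb1, a phospholipase C activated by Gq, had -0.51. Kcnj3, a channel subunit opened by G beta gamma, was higher (0.49). Of 11 other G protein regulators, 2 were lower and 3 higher (median 0.045), with Ric8b, a chaperone of Gs and olfactory alpha subunits, at -0.37 and the receptor kinase gene Grk4 at 0.36 from levels of 2.625 CPM in Q175 and 2.04 CPM in Q20. Of 17 measured genes of striatal G protein-coupled receptors, 14 were lower and 2 higher in Q175 at 6 months (median -0.50).

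**Figure D5:**
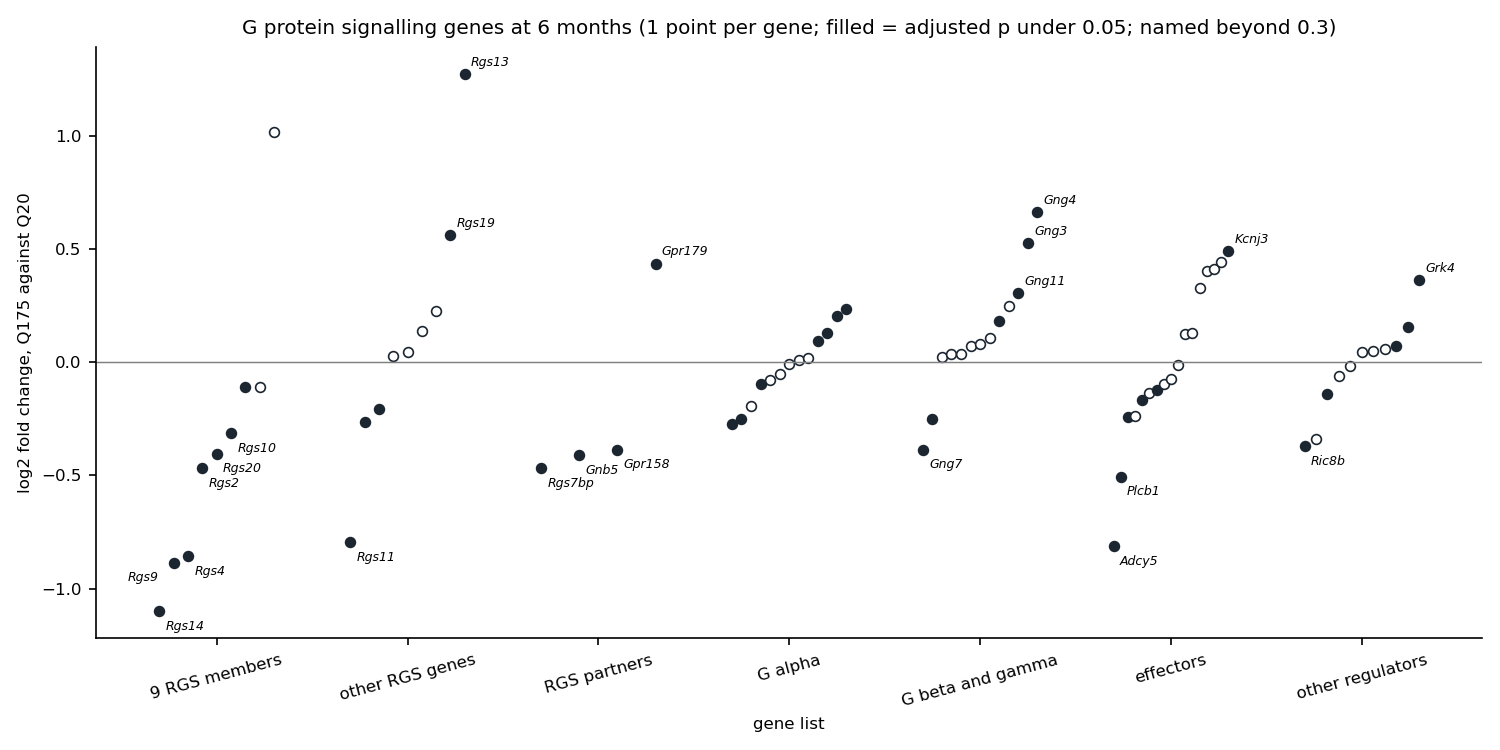
Log2 fold change in Q175 against Q20 at 6 months for the 9 RGS genes and 6 lists of other G protein signalling genes, 1 point per gene that passed the filter, filled at an adjusted p under 0.05 and named beyond 0.3. The 9 genes and the R7 partners lie mostly below 0, down to -1.10, while the alpha and the beta and gamma subunit genes lie on both sides of it.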

How the data were processed

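Polyadenylated RNA of striatum was sequenced in 26 groups of 8 libraries. The deposited tables hold estimated counts and FPKM per gene, both made by the authors. CASAVA 1.8.2 is named in the submitters' processing notes. The aligner, the genome build and whether strand was used in counting are not stated in the labels or file headers, so genes that overlap or run antisense cannot be told apart. The deposited expected counts (32.7% of values above 0 were fractional) were rounded and tested with edgeR 4.0.16 (R 4.3.3) by its quasi-likelihood test with TMM scaling, filterByExpr (minimum count 10, minimum total 15) and sex as a covariate, within each age and, between ages, in 1 fit. P-values were Benjamini-Hochberg adjusted over all genes tested, with a threshold of 0.05. The deposited FPKM values gave levels between genes and, as log2(FPKM + 1) or log2(FPKM + 0.1), an alternative with limma 3.58.1. DESeq2 1.42.0 was another. Other alternatives changed the scaling, filter, covariates or libraries. The models were tested on simulated data. Total counts of 29120490 to 49550126 left 103 as the lowest count of a member in a library (Rgs16). The tissue scores are summaries of marker lists.

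The members and lists were chosen with earlier results of these data known. The genes named are the 9 members, for each member called in Q175 against Q20 at 6 or 10 months the 3 genes with the highest correlation to it over the 26 group means, and genes of the pathway lists called in Q175 against Q20 at 6 months. A further gene that this rule names for Rgs20 is not reported here. Other list genes are named where a list's low or undetected members are given. Figures were drawn with matplotlib 3.10.9. Permutation tests were run in Python 3.11.15, with ranks from scipy 1.17.1.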

Additional observations from a re-analysis of the deposited data

Results flagged for a closer look

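A library was far from the others of its group for 26 of the 234 combinations of gene and group, by a gap wider than Dixon's critical value at the 95% level. Chance flags about 1 in 20 groups. Rgs16 accounted for 8 of them. Its high values were 51.4 CPM in a Q175 library of 10 months, 33.3 CPM in Q140 at 6 months, 16.01 CPM in Q111 at 6 months, 56.0 CPM in Q92 at 6 months, 50.55 CPM in Q80 at 6 months, 76.6 CPM in Q80 at 10 months, 35.0 CPM in Q20 at 2 months and 17.4 CPM in wild types of 6 months housed with Q175.

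In 4 of these libraries Rgs14 was low, with 29.7 CPM in the Q140 library of 6 months (nearest other 40.2 CPM), 49.5 CPM in the Q92 library of 6 months, 55.7 CPM in the Q80 library of 6 months and 44.1 CPM in the Q80 library of 10 months. The Q80 library of 6 months also had 467 CPM of Rgs9 (nearest other 620 CPM), the Q80 library of 10 months a high value of Rgs7, 33.9 CPM (nearest other 27.9 CPM), and the Q140 library of 6 months a low value of Rgs10, 23.2 CPM (nearest other 25.1 CPM). Their thalamic marker sums were 417 CPM, 671 CPM, 560 CPM and 884.5 CPM in the order of the Rgs14 values, each the highest of its group. The Q140 library also had the highest choroid plexus sum of its group, 580 CPM beside a median of 60.9 CPM. The Q80 library of 6 months had the highest choroid plexus sum, 5808 CPM beside a median of 112 CPM, and the highest cortical sum, 229 CPM beside a median of 95.5 CPM. The Q80 library of 10 months had the highest cortical sum of its group, 255 CPM beside a median of 142 CPM. The part of RNA from these tissues in the values was not tested.

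The Q80 library of 2 months that stands apart with the lowest correlation had 90.6 CPM of Rgs10 (nearest other 36.5 CPM), 6.14 CPM of Rgs7 (nearest other 24.3 CPM) and 175 CPM of Rgs8 (nearest other 246 CPM). At the same age 1 Q111 library had 48.3 CPM of Rgs10 and 71.2 CPM of Rgs20, and 1 wild-type library had 46.4 CPM of Rgs10. The remaining values were 20.6 CPM of Rgs10 in Q175 at 6 months, 44.15 CPM of Rgs20 in Q140 at 10 months, 36.2 CPM of Rgs10 in Q20 at 6 months, 840 CPM of Rgs4 in Q20 at 10 months (nearest other 663.5 CPM) and 336.5 CPM of Rgs2 in a library of wild types of 6 months housed with Q80 (nearest other 173 CPM). That last library also had the highest sum of activity-induced genes in its group, 1859 CPM, whose part in it was not tested.

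The Q175 effect against Q20 differed between ages for 3 genes by the test of the difference. Between 6 and 2 months the differences were -0.79 for Rgs14, -0.63 for Rgs9 and -0.47 for Rgs4 on the log2 scale, and between 10 and 2 months they were -0.63 for Rgs14 and -0.56 for Rgs9.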

How the results depend on the processing

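Of 3816 values of single genes under an alternative, 3691 stayed on their side of the threshold, 74 lost a call and 49 gained one in the same direction. The sign changed in 232, in none of the 1087 whose value as reported was called, and in 2 of them the alternative gained a call. In Q175 at 6 months Rgs9 (-0.91 to -0.76), Rgs4, Rgs14, Rgs20 and Rgs10 kept their calls in all 27 alternatives. On FPKM, 5469 genes were higher and 1755 lower in Q175 at 6 months, in place of 3179 and 3203 on counts, and the median moved to 0.067 from 0.0097. The calls against Q20 at 2 months were 1 in all, and became 0 with the number after L in the library names (the L number) as a factor, 3 with DESeq2, 2 with log2(FPKM + 1) or log2(FPKM + 0.1), 2 without the libraries that stand apart or under a wider limit of correlation chosen after the data were seen, and 4 against wild types. Leaving out 1 library of Q175 or Q20, the only groups from which libraries were left out in turn, gave 1 to 3, with 2 without Q175 female 1 and 3 without Q20 female 4. The 3 slopes at 2 months became 1 with RLE factors, no filter, the L number or tissue scores. They became 1 as well without the male with no Y-linked counts. Without Q175 they became 0, where 0 of all 16834 genes tested were called. The 5 age differences became 8 with the L number and 9 without the libraries that stand apart under either limit, where Rgs10 between 6 and 2 months changed sign to -0.32 and -0.30. Leaving out 1 Q175 or Q20 library gave 17 to 21 calls at 6 months, 13 to 16 at 10 months, 15 against own wild types and 0 for Q20 against wild types. With the replicate number as a block, 283 of 288 values stayed on their side of the threshold, Rgs14 lost its slope at 2 months (adjusted p = 0.091) and 4 gained a call, such as Rgs8 in Q175 at 6 months (-0.11, adjusted p = 0.0159). The block moved the genes called in Q175 at 6 months to 6874, from 6382. Same-numbered libraries had mean correlations of -0.0073, 0.10 and 0.03 at the 3 ages and other pairs 0.0045, -0.033 and -0.0091, with lowest same-numbered values of -0.90, -0.34 and -0.60. The labels name nothing that a number shares, so the block stands as an alternative alone. The causes were not tested.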
